A study of Arabidopsis thaliana with 12 samples.

Results

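The response of Arabidopsis thaliana roots to activation of the transcription factor LBD16, with protein synthesis running, was read from 6 arrays, 3 treated with dexamethasone (DEX) and 3 mock-treated. They were chosen by sample title out of 12 arrays in all, and the other 6, which received cycloheximide, did not enter the comparison. Every array held RNA from whole roots of 5-day-old seedlings of a single line, which carried the transgene 35S::LBD16:GR in plants mutant for both arf7-2 and arf19-5. The mock arrays received 0.1% DMSO for 4 hours, and the DEX arrays received 2 µM DEX for 4 hours, with no solvent named for them in the labels. The mutations in ARF7 and ARF19 and the transgene were carried by both groups. A difference in solvent between the groups cannot be told apart from the drug. The 35S promoter drives the fusion in most cells, not just in those that normally express LBD16. No array held DEX-treated roots without the fusion, so effects of the steroid itself and of the activated fusion cannot be told apart. The labels describe 3 independent RNA sets per treatment and do not say whether these came from separate plates, so p-values measure the spread between these samples.

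LBD16 belongs to the LATERAL ORGAN BOUNDARIES DOMAIN family and acts at the start of lateral root formation. In wild-type roots auxin acts through ARF7 and ARF19, which switch on LBD16 in pericycle cells facing the xylem, before those cells divide asymmetrically. A new primordium then has to pass the overlying endodermis, cortex and epidermis, whose cell walls are remodelled on the way. GR stands for the steroid-binding domain of the glucocorticoid receptor, which keeps a fused protein in the cytoplasm until DEX is given. With cytoplasmic translation unblocked, a transcript can respond to the fusion directly or through proteins made during the treatment, and the comparison of DEX with mock does not separate these.

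All values are deposited log2 expression values, 1 probe set per gene, for 16550 genes. Array medians ran from 5.88 to 5.93, and the median difference between DEX and mock over all genes was 0.03. Pairs of arrays correlated across genes at 0.992 to 0.993 within mock, at 0.992 within DEX and at 0.989 to 0.991 between mock and DEX. No detection call was used, so low values have no stated floor, and the number of arrays limits the precision. Of 32 marker genes listed for root and shoot cell types 6 were measured, and 5 of the 8 marker lists had no measured gene. The root markers PYK10 and BGLU22, both beta-glucosidases of roots, had mock means of 13.35 and 11.77, and the root hair expansins EXPA7 and EXPA18 had 8.15 and 10.42. None of the 6 markers passed the test. The LBD16 probe set, which can read both the transgene and the native gene, stood at 9.56, 9.45 and 9.46 with mock and at 9.38, 9.30 and 9.29 with DEX. The DEX arrays lay just below the mock arrays, a mean difference of -0.17 (two-sided exact permutation, p = 0.1, and 3 against 3 arrays can give no smaller p). In limma, the test used for all genes, LBD16 was not called (Benjamini-Hochberg adjusted p = 0.689). Of all genes 5.49% likewise had every DEX array below every mock array.

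The response was mostly upward. At a Benjamini-Hochberg adjusted p below 0.05 in limma, 129 of 16550 genes were called (0.779%), 107 of them higher with DEX (0.647%) and 22 lower (0.133%). The arrays of the groups did not overlap for any of the 129. By itself, lack of overlap was common, since 1600 genes (9.67%) had every DEX array above every mock array and 908 (5.49%) had every DEX array below. An unadjusted p under 0.05 was reached by 1571 genes (9.49%). The called rises had a median log2 change of 1.21 and the called falls of -0.89. Rises of at least 2-fold numbered 68 (0.411%) and falls of at least 2-fold 7 (0.0423%). At least 4-fold rises numbered 18, and no called fall reached 4-fold. Rises lay on all 5 nuclear chromosomes, with 29 of 4275 genes tested on chromosome 1, 17 of 2536 on chromosome 2, 22 of 3381 on chromosome 3, 13 of 2441 on chromosome 4 and 24 of 3811 on chromosome 5. Because bulk roots were sampled, more cells of a type and more RNA per cell cannot be told apart here.

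**Figure D1:**
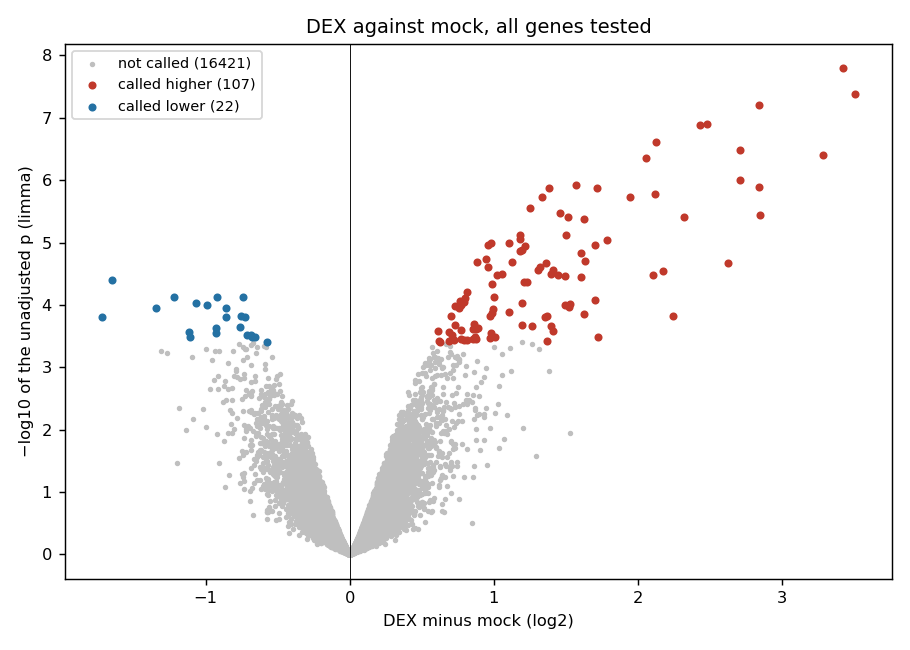
Change of each of the 16550 genes with DEX (x axis, DEX minus mock, log2) against the −log10 of its unadjusted limma p (y axis), 1 point per gene. The 107 genes called higher reach 3.51, whereas the 22 called lower stop at -1.72.

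Of the 15 largest rises 7 are described first, by what each gene is known to do. AT1G62770 belongs to the pectin methylesterase inhibitor family, whose members block the enzymes that strip methyl groups from pectin. It read 5.02, 5.14 and 5.17 with mock and 8.66, 8.31 and 8.64 with DEX. The lowest DEX array stood 3.13 above the highest mock array, a gap far wider than the spread inside either group. Its log2 change was 3.42 ± 0.13 (SE, n = 3 per group, 95% interval 3.13 to 3.72, adjusted p = 0.000266). AT1G10640, of the polygalacturonase type that cuts pectin chains, read 5.36, 5.39 and 5.23 with mock and 7.77, 7.58 and 7.93 with DEX. It rose 5.40-fold (log2 2.43 ± 0.12, adjusted p = 0.000438), and its groups were 2.19 apart at their closest. AT3G22060 encodes a secreted cysteine-rich protein related to receptor kinases. Its arrays read 7.89, 8.03 and 7.68 with mock and 10.66, 10.85 and 10.61 with DEX, a 7.17-fold rise (adjusted p = 0.000347). AT5G55050, a GDSL-type lipase or esterase, read 8.34, 8.31 and 8.13 with mock and 10.25, 10.42 and 10.49 with DEX, a 4.37-fold rise (adjusted p = 0.00066).

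GH3.5, listed as WES1, joins auxin to amino acids and so takes free auxin out of action. It read 8.28, 7.97 and 8.02 with mock and 10.63, 10.63 and 10.45 with DEX, so every DEX array lay at least 2.17 above every mock array. The rise was 5.58-fold (log2 2.48 ± 0.12 SE, adjusted p = 0.000438). Of 6 measured GH3 genes matched by name it was the called one (16.7%, against 0.779% over all genes), and none was called lower. GH3.1 read 7.06, 7.34 and 7.06 with mock and 8.05, 8.67 and 8.09 with DEX. Its groups did not overlap, yet its change of 1.11 missed the threshold (adjusted p = 0.0567), DEX replicate 2 being the highest array. GH3.3 (0.01), GH3.4 (0.00), GH3.9 (-0.05) and GH3.17 (0.13) were near no change, and the list's median was 0.07 against 0.03 over all genes.

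AT5G65320 encodes a basic helix-loop-helix (bHLH) transcription factor of subgroup Ia, the group that also holds the stomatal regulators SPCH, MUTE and FAMA. It read 5.17, 5.42 and 5.87 with mock and 8.72, 8.17 and 8.12 with DEX, a 7.19-fold rise (log2 2.85 ± 0.23 SE, adjusted p = 0.00295). A relative in the same subgroup, AT1G22490 (bHLH94), read 5.16, 5.38 and 5.54 with mock and 6.55, 7.04 and 6.82 with DEX. Its rise was smaller, 2.72-fold (1.44 ± 0.16, adjusted p = 0.0109). Of 9 measured members of the subgroup, a list added after values were seen, these were the 2 called (22.2%, against 0.779% over all genes). The remaining members lay between -0.35 and 0.12, among them AT1G72210 at -0.02, SPCH at 0.12, MUTE at 0.12 and FAMA, listed as FMA, at -0.35. The median of the subgroup was -0.02, against 0.03 over all genes. The call of AT1G22490 ended when mock replicate 1, mock replicate 2, DEX replicate 2 or DEX replicate 3 was left out (adjusted p from 0.0504 to 0.0596).

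Called genes for small secreted peptides included AT4G37295, AT4G37290, CLE16 and IDL4. AT4G37295 and its neighbour AT4G37290 belong to the PIP type, small precursors that are cut to signalling peptides. AT4G37295 read 4.61, 4.86 and 4.15 with mock and 7.89, 7.95 and 7.64 with DEX, a 9.75-fold rise (log2 3.29 ± 0.19 SE, adjusted p = 0.000808). AT4G37290 read 3.26, 3.06 and 2.65 with mock and 4.09, 4.49 and 4.51 with DEX, a 2.59-fold rise (adjusted p = 0.0288). The highest mock array of AT4G37290 and its lowest DEX array were 0.82 apart, against 2.78 for AT4G37295. Leaving out any of the 6 arrays ended the call of AT4G37290 (adjusted p from 0.0502 to 0.125). CLE16, of the CLAVATA3/ESR-related peptides that bind receptor kinases in meristems, read 7.30, 7.30 and 7.08 with mock and 8.64, 8.50 and 8.13 with DEX. Its log2 change was 1.20 ± 0.15 (adjusted p = 0.0225). Of 16 measured CLE genes matched by symbol it was the called one, 6.25% against 0.779% over all genes. That list was added after values were seen. The CLE list had a median of 0.01, and CLE1 stood at -0.91, with no overlap of its arrays and an adjusted p of 0.0601. IDL4, a relative of the abscission peptide IDA, read 6.24, 6.28 and 5.62 with mock and 7.53, 7.40 and 7.28 with DEX (1.36 ± 0.19, adjusted p = 0.0288). IDL3, also measured, stood at 0.07. The call of CLE16 ended without mock replicate 1, 2 or 3 or DEX replicate 1 or 2 (adjusted p from 0.0748 to 0.105). That of IDL4 ended without any array but mock replicate 3 (0.0683 to 0.124). A name-based list of 125 secreted peptides and cysteine-rich precursors, which does not hold IDL4, AT4G37295 or AT4G37290, had CLE16 as its 1 called gene. That share of 0.8% is near the 0.779% over all genes, and the median change was 0.03.

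Among the 15 largest rises, 8 genes are given here with no role. AT1G07690 had the largest change in the comparison, reading 5.88, 5.58 and 5.49 with mock and 9.35, 8.97 and 9.14 with DEX (11.4-fold, log2 3.51 ± 0.15 SE, adjusted p = 0.00034). AT5G55800 read 4.23, 4.58 and 4.58 with mock and 7.41, 7.59 and 6.91 with DEX, a 7.16-fold rise. AT1G64405 read 2.67, 3.01 and 3.14 with mock and 5.81, 5.66 and 5.49 with DEX, a 6.55-fold rise. In each of these genes the DEX arrays lay at least 2.33 above the mock arrays. AT3G57950 rose 6.55-fold, from 5.99 to 6.59 with mock to 8.86 to 9.25 with DEX, and AT1G29270 rose 4.99-fold, from 4.51 to 4.90 to 6.71 to 7.31. For 3 others the mock arrays were more spread. AT2G43470 read 3.91, 4.88 and 3.90 with mock and 6.66, 7.07 and 6.83 with DEX (2.62 ± 0.27, adjusted p = 0.0085), and leaving out DEX replicate 2 ended its call (0.0529). AT5G44572 read 4.19, 4.64 and 5.16 with mock and 6.33, 7.15 and 7.25 with DEX (2.25 ± 0.31, adjusted p = 0.0288), and lost its call without mock replicate 1 or 2 or DEX replicate 2 or 3 (0.0898 to 0.127). AT5G17340 read 2.69, 3.32 and 2.54 with mock and 4.69, 5.13 and 5.24 with DEX (2.17 ± 0.23, adjusted p = 0.0102), and lost it without mock replicate 1 (0.0575) or DEX replicate 2 (0.0602).

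**Figure D2:**
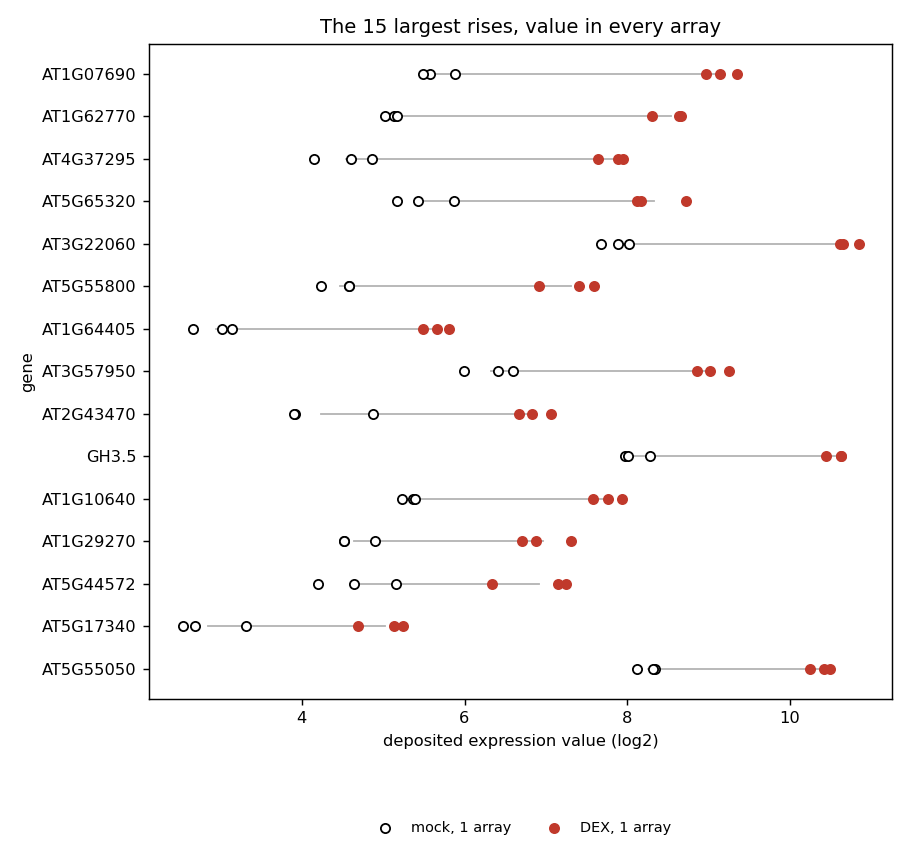
Deposited log2 values (x axis) of the 15 genes with the largest changes among the called rises (y axis), 1 open circle per mock array and 1 filled circle per DEX array, with a line between the group means. Genes were chosen among those whose groups do not overlap, and AT5G44572 has the narrowest gap, at 1.18.

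Genes of the RGI and BRI1 receptor kinase families, both known for growth control, were among the called rises. RGF receptors (RGI) perceive root meristem growth factor peptides. AT1G34110, which is one of them, read 7.92, 7.88 and 7.93 with mock and 9.31, 9.29 and 9.14 with DEX. It rose 2.53-fold (log2 1.34 ± 0.10 SE, adjusted p = 0.00182). AT3G24240, another of them, read 8.24, 8.23 and 8.40 with mock and 8.87, 8.89 and 9.002 with DEX (0.63 ± 0.10, adjusted p = 0.0499). Of the 5 RGI genes, a list added after values were seen, 4 were measured and 2 called (50%, against 0.779% over all genes). The other 2, AT4G26540 and AT5G48940, stood at 0.12 and 0.13. The call of AT3G24240 was at the edge of the threshold, and leaving out any of the 6 arrays ended it (adjusted p from 0.130 to 0.195). BRL1, a brassinosteroid receptor of vascular cells, read 6.06, 5.89 and 5.89 with mock and 7.10, 6.97 and 6.68 with DEX (0.97 ± 0.13, adjusted p = 0.0288). BRL1 was the 1 measured gene of the 4 in the BRI1 family, and lost its call without any array but DEX replicate 3 (0.0820 to 0.139). AT3G61160, a kinase of the GSK3 or shaggy-like type, read 6.59, 6.65 and 6.70 with mock and 7.91, 7.96 and 7.82 with DEX, a 2.38-fold rise (adjusted p = 0.00254). ATSK12, the other measured shaggy-like kinase of 10 listed, stood at -0.02.

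Oxidative enzymes of the cell wall split by member. Class III peroxidases are secreted enzymes that use hydrogen peroxide to stiffen or loosen walls, and 64 of their 73 genes were measured. Of these 3 rose and 1 fell, a called share of 6.25% against 0.779% over all genes. The list was added after values were seen. The median change of the family was -0.02. AT5G64120 (PRX71) read 8.68, 8.88 and 8.71 with mock and 9.79, 10.22 and 9.90 with DEX (log2 1.21 ± 0.14 SE, adjusted p = 0.0129). AT5G64100 read 9.51, 9.56 and 9.59 with mock and 10.80, 10.49 and 10.36 with DEX (0.99 ± 0.13, adjusted p = 0.0243), while AT5G64110, which lies between these genes, stood at 0.11. AT2G37130 read 7.65, 7.71 and 7.73 with mock and 8.58, 8.73 and 8.61 with DEX (0.94 ± 0.10, adjusted p = 0.00848). AT4G37520 fell, reading 5.18, 5.02 and 4.97 with mock and 4.43, 4.32 and 4.44 with DEX (-0.66 ± 0.10, adjusted p = 0.0468), while the adjacent AT4G37530 stood at -0.27. Just outside the threshold, AT5G14130 stood at 1.05 (adjusted p = 0.0634) and AT5G15180 at -0.74 (0.0559), neither called. Leaving out single arrays ended the call of AT2G37130 in 1 case (DEX replicate 2, adjusted p = 0.0505), of AT5G64120 in 3 (mock replicates 1 and 3 and DEX replicate 3, 0.0537 to 0.0723), of AT5G64100 in 5 (all but DEX replicate 3, 0.0533 to 0.112) and of AT4G37520 in all 6 (0.135 to 0.176). AT4G11230 encodes an NADPH oxidase of the RBOH family, the plasma membrane enzymes that supply superoxide for hydrogen peroxide. It read 7.95, 7.87 and 7.97 with mock and 8.92, 8.91 and 8.91 with DEX, its DEX arrays being almost equal (0.98 ± 0.09, adjusted p = 0.00576). AT4G25090, the other measured RBOH gene of 10, stood at -0.07.

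Other called members of the gene lists came 1 or 2 to a list. UGT71B8, a glycosyltransferase that adds sugar to small molecules, read 3.97, 3.22 and 3.88 with mock and 5.03, 5.34 and 5.89 with DEX (log2 1.73 ± 0.27 SE, adjusted p = 0.0468). Of the 54 UGT genes matched by name it was the called 1 (1.85%, against 0.779% over all genes), and their median was -0.11. UGT genes with no such name are not counted. Leaving out any array ended the call of UGT71B8 (0.0713 to 0.155). ATL43 and ATL63 are RING-type ubiquitin ligases. A list of 6 measured ATL genes was matched by symbol and added after values were seen. ATL43 and ATL63 were its 2 called members (33.3%, against 0.779% over all genes). ATL genes with no such symbol are not counted. ATL43 read 4.69, 4.49 and 4.70 with mock and 5.49, 5.50 and 5.85 with DEX (0.99, adjusted p = 0.0279), and ATL63 4.46, 4.62 and 4.35 against 5.54, 5.17 and 5.40 (0.89, adjusted p = 0.0392). Leaving out any array ended these calls as well (up to 0.114 and 0.161). AT1G79520, of the metal tolerance proteins that move metal cations out of the cytoplasm, rose by 1.305 ± 0.14 (adjusted p = 0.0102). Of 8 measured members, a list added after values were seen, it was the called 1 (12.5%, against 0.779% over all genes). Their median was 0.17. The call of AT1G79520 ended without mock replicate 2 or any DEX array (0.05001 to 0.0568).

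A name-based list of 4 measured pectin methylesterases and inhibitors, which does not hold AT1G62770, had 0 called. Its members ran from -0.58 for PMEPCRF (adjusted p = 0.0787) to 0.36, with a median of 0.05. Several pectin genes outside the name-based lists are given because of their values. AT5G14650, AT3G59850 and AT1G48100 are of the pectin lyase-like or polygalacturonase type, as is AT1G10640. AT5G14650 read 3.75, 3.29 and 3.48 with mock and 5.43, 5.69 and 5.75 with DEX (4.34-fold, adjusted p = 0.00182). AT3G59850 read 5.21, 5.42 and 5.29 with mock and 6.56, 6.51 and 6.40 with DEX (2.27-fold, adjusted p = 0.005). AT1G48100 read 4.23, 4.60 and 4.58 with mock and 5.71, 5.50 and 6.31 with DEX (2.58-fold, adjusted p = 0.0499). No complete list of the family was available, so its other members are not counted here. The AT1G48100 call sat at the threshold and ended when any array was left out (adjusted p from 0.0675 to 0.161), whereas the other 3 genes of this type stayed called in each such fit. Other secreted proteins were also noticed by their values. AT5G48540, like AT3G22060 a secreted cysteine-rich protein, rose by 1.20 (adjusted p = 0.0371) and lost its call without any of the arrays (0.0631 to 0.133). AT1G30760, of the berberine bridge enzyme type, read 5.28, 5.01 and 4.92 with mock and 7.13, 7.07 and 7.18 with DEX (4.16-fold, adjusted p = 0.000814).

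Some called rises lay next to each other. Of 10409 pairs of neighbouring protein-coding genes with both members tested, 131 had at least 1 member called higher, and 3 pairs (0.0288%) were called higher on both sides. Of single genes 0.647% were called higher, a share of genes and not of pairs, so these shares cannot be compared. How many such pairs unlinked calls would give was not worked out. No pair was called lower on both sides. The pair AT3G57950 and AT3G57960 stood at 2.71 and 1.95, and AT3G57960 read 3.84, 4.00 and 3.83 with mock and 6.04, 5.57 and 5.90 with DEX. The peptide genes AT4G37290 and AT4G37295 stood at 1.37 and 3.29. AT3G61810, a glucan hydrolase of family 17, and AT3G61820, an aspartyl protease, stood at 1.78 and 0.79. AT3G61810 read 7.87, 7.64 and 7.48 with mock and 9.69, 9.47 and 9.19 with DEX. The call of AT3G61820 ended when any array was left out (adjusted p from 0.0539 to 0.109). Whether probes of neighbours read each other's transcripts was not tested.

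The falls were fewer and smaller. Acyltransferases of the HXXXD class build hydroxycinnamic acid amides and esters. One of them, AT2G25150, read 9.33, 9.06 and 9.70 with mock and 7.20, 7.75 and 7.995 with DEX. It fell by 1.72 on the log2 scale (SE 0.24, n = 3 per group, 95% interval -2.28 to -1.15, adjusted p = 0.0288). AT5G39080, another acyltransferase of that type, read 5.89, 6.31 and 6.20 with mock and 4.74, 5.28 and 5.06 with DEX (-1.11, adjusted p = 0.0468). In both genes DEX replicate 1 was the lowest array, and no DEX array reached a mock array. AT5G22860, a serine carboxypeptidase of family S28, read 7.27, 7.55 and 7.19 with mock and 5.57, 6.07 and 5.44 with DEX (-1.65 ± 0.19, adjusted p = 0.0123, the lowest among the falls). GH9B17, an endoglucanase of glycosyl hydrolase family 9, read 7.49, 7.498 and 7.42 with mock and 5.93, 6.43 and 6.40 with DEX (-1.22 ± 0.15, adjusted p = 0.02). It was the called 1 of 29 measured genes in a name-based list of xyloglucan and glucan hydrolases (3.45%, against 0.779% over all genes). The median of that list was 0.01. The list does not hold AT3G61810, the glucan hydrolase named above, which was called higher (1.78), and glucan hydrolases with no such name are not counted. TINY, listed as tny, an AP2-type factor of the DREB group that restrains growth when overexpressed, read 8.91, 8.62 and 9.15 with mock and 7.59, 7.75 and 8.002 with DEX (-1.11 ± 0.17, adjusted p = 0.0424).

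AT4G00910, of the aluminium-activated malate transporter family of anion channels, read 9.49, 9.94 and 9.59 with mock and 8.62, 8.67 and 8.52 with DEX (-1.07 ± 0.14 SE, adjusted p = 0.0227). Of 10 measured members of 14, a list added after values were seen, it was the called 1 (10%, against 0.779% over all genes). The others lay between -0.38 and 0.65. AT1G58320 read 7.60, 7.57 and 7.66 with mock and 6.51, 5.85 and 6.43 with DEX (-1.35 ± 0.18, adjusted p = 0.0239), DEX replicate 2 being the lowest. AT5G16410 was also an HXXXD acyltransferase, at -0.99 (adjusted p = 0.0227). The name-based list of that class held no measured gene, so its other members are not counted here. AT1G22430, of the alcohol dehydrogenase type, stood at -0.93 (0.0391), and AT5G43590, of the patatin-like lipase type, at -0.93 (0.0426). With 1 array fewer, many calls were lost while the changes stayed of similar size. Of the 22 falls, 0 stayed called in all 6 fits that each left out 1 array, against 36 of the 107 rises. The call ended whichever array was left out for 14 of the 22 falls and 36 of the 107 rises, so it needed all 6 arrays. In those fits AT2G25150 stood between -1.89 and -1.49, AT5G22860 between -1.84 and -1.52, and AT5G39080 between -1.23 and -0.96. The other 7 named falls stayed between -1.47 and -0.80. AT5G22860 lost its call without mock replicate 1 or 2 or DEX replicate 1 (adjusted p from 0.0596 to 0.0636). The calls of AT2G25150 and AT5G43590 ended without any array but DEX replicate 3 (up to 0.110 and 0.167), and those of GH9B17 and AT5G16410 without any but DEX replicate 1 (up to 0.0978 and 0.111). AT1G58320 lost it without any but DEX replicate 2 (up to 0.115), AT4G00910 without any but mock replicate 2 (up to 0.0951), and TINY, AT5G39080 and AT1G22430 without any of the 6 (up to 0.157, 0.181 and 0.161).

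**Figure D3:**
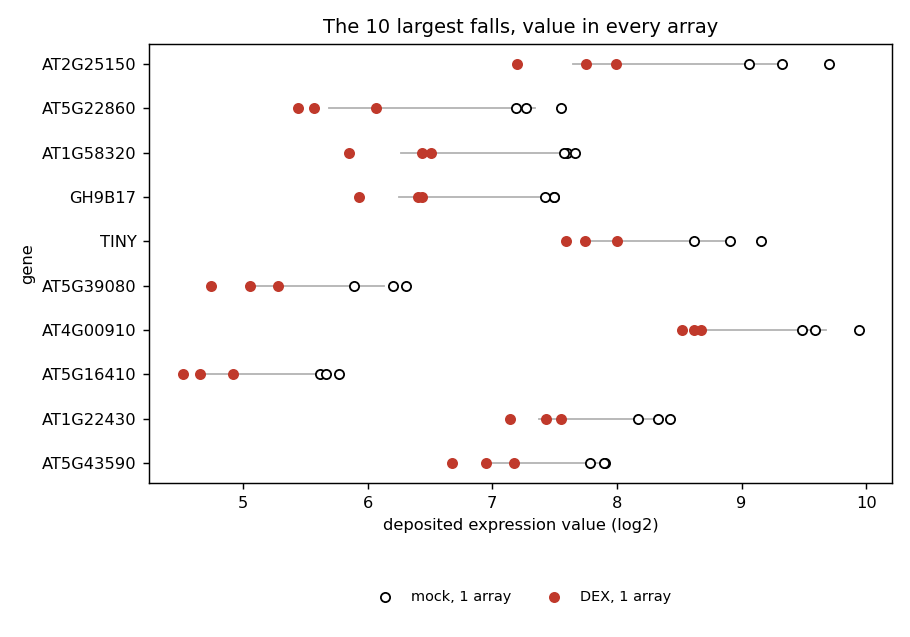
Deposited log2 values (x axis) of the 10 genes with the largest changes among the called falls (y axis), 1 open circle per mock array and 1 filled circle per DEX array, with a line between the group means. Genes were chosen among those whose groups do not overlap, and the gaps between the groups run from 0.60 for AT5G39080 to 1.12 for AT5G22860.

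Transcripts of photosynthesis moved together without passing the test. Of 10 measured photosynthesis genes all 10 had a negative change, from -0.92 for PSAN to -0.21 for LHCB4.3, with a median of -0.57 against 0.03 over all genes. For 7 of them every DEX array lay below every mock array, as for 5.49% of all genes, and none was called. The mean log2 level of the 10 genes was 6.08, 6.40 and 6.42 with mock and 5.52, 5.91 and 5.71 with DEX. Summed on the linear scale their signal was 868 to 1062 in the mock arrays and 600 to 798 in the DEX arrays. The leaf markers RCA and PORB, of which RCA is also on that list, stood at -0.41 and -0.60. RCA read 7.21, 7.39 and 7.75 with mock and 6.94, 7.02 and 7.17 with DEX. The 63 genes of the plastid genome did not share the shift, with a median of 0.03, a range of -0.17 to 0.19 and 0 of 63 called. Whether green shoot tissue differed between the samples, and its part in the falls, was not tested.

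**Figure D4:**
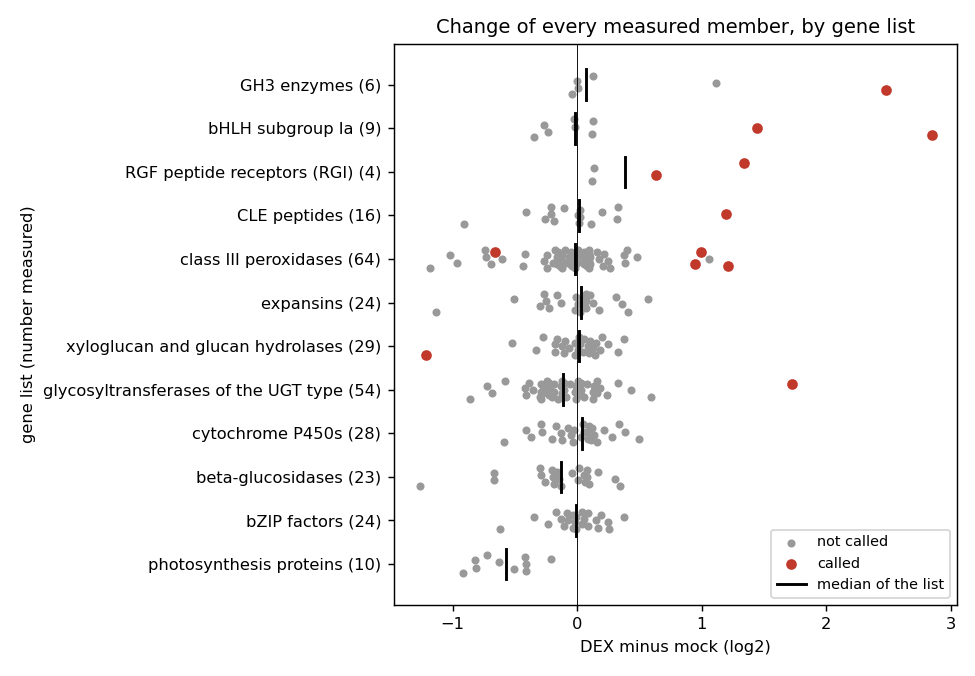
Change with DEX (x axis, DEX minus mock, log2) of every measured member of 12 gene lists (y axis, number measured in brackets), called genes in red and others in grey, with a black bar at the list's median. Apart from the RGI receptors (median 0.38) and the photosynthesis genes (-0.57), the medians lie between -0.13 and 0.07, and the called peroxidase that fell, at -0.66, lies among others that were not called.

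Lists with no called gene made up the rest. The name-based lists covered 486 of the tested genes, of which 5 rose and 1 fell (1.23%, against 0.779% over all genes), and 6 of the 28 lists with at least 3 measured members held a call. None of the 24 expansins was called (median 0.03), with EXPA20 at 0.57 (adjusted p = 0.134) and EXPA23 at -1.13 (0.283) as its extremes. None of 28 genes matched by name as cytochrome P450s (median 0.04) passed, nor did 23 matched as beta-glucosidases (-0.13) or 24 as bZIP factors (-0.01). The same held for 14 matched as glutathione transferases (-0.03) and 8 as Aux/IAA repressors (-0.13). A name match does not show that a gene belongs to the family, and members with no such name are not counted. For cell division, AUR1 stood at -0.01, AUR3 at -0.02 and the centromeric histone HTR12 at 0.09. The 8 histones lay between 0.01 and 0.40 and the 10 kinesin and tubulin genes between -0.05 and 0.12. LBD29, the other listed LBD gene measured, stood at -0.02.

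Of the rises, 102 of 107 were also called when all 12 arrays entered the fit, and 20 of the 22 falls. Each change in that fit is the same difference between the DEX and mock means. The cycloheximide arrays alter just how the spread is estimated, so this overlap is no independent support for the calls. The fit of all 12 arrays, which takes its spread from 4 treatments, called 251 genes, 183 higher (1.11%) and 68 lower (0.411%). Leaving out single arrays brought the total to between 42, without DEX replicate 2, and 62, without DEX replicate 3. The other totals were 54, 58 and 55 without mock replicates 1, 2 and 3 and 52 without DEX replicate 1. In those fits 1 group had 2 arrays.

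**Figure D5:**
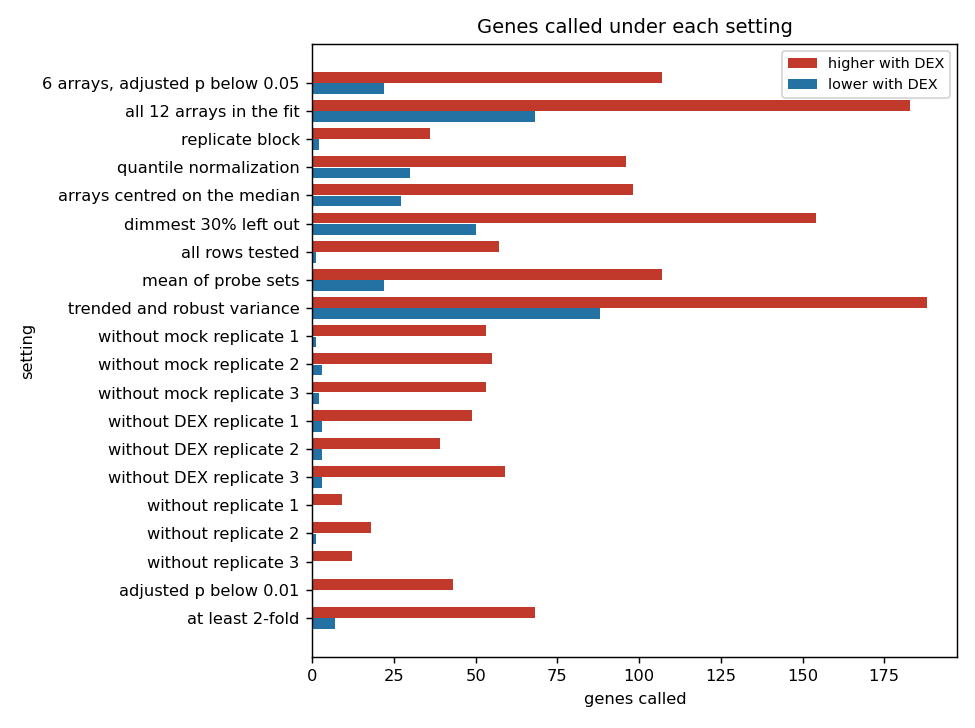
Number of genes called higher (red) and lower (blue) with DEX (x axis) under each setting (y axis); the top pair is the comparison as reported. Rises outnumber falls in every setting, from 107 against 22 as reported to 9 against 0 without replicate 1 of both groups.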

How the data were processed

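RNA of 6 root samples was measured on Affymetrix arrays, 1 array per sample. The deposited values are log2 expression made by the authors with Affymetrix Expression Console 1.3, per the submitters' processing notes. How they were summarized and normalized is not given in the sources used here, so no further normalization was applied for the reported comparison. Of 38408 rows in the table, 16722 named a single gene, 759 named several genes and 20927 named none. The 16722 rows gave 16550 genes, each read from its probe set with the highest mean over the 6 arrays. Symbols came from RefSeq's table of assembly TAIR10.1, which matched 16411 genes, 14649 of them by locus alone. Family roles of these are general knowledge and stand in no table used.

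Groups were compared with limma 3.58.1 in R 4.3.3 (lmFit and eBayes, two-sided, Benjamini-Hochberg over 16550 genes), and LBD16 also by exact permutation. The method was tested on simulated data. Members and lists were chosen with earlier results of these data known. Lists by gene name used symbols and RefSeq synonyms, and 12 of those 48 lists had no gene measured. The lists of peroxidases, laccases, RBOH, RGI, BRI1, bHLH Ia, GSK3, ALMT, MTP, ATL, CLE and IDL genes were added after values were seen. Their called shares are therefore no test against the share over all genes. Neither of 2 measured laccases was called. Named genes are the 15 largest rises and 10 largest falls without overlap, up to 3 called members per list and direction, up to 2 of the brightest members of a list with no call, markers, LBD16 and called neighbours. Any other gene was chosen after its values were seen. The alternatives were all 12 arrays, a replicate block, quantile normalization, centring, a filter on the dimmest 30% of genes, a test of all rows, the mean of probe sets, a trended and robust variance, stricter thresholds and leaving out arrays.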

Additional observations from a re-analysis of the deposited data

Results flagged for a closer look

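A signal appeared in rows that carry no gene name and so entered none of the comparisons. With all 38408 rows tested and p-values adjusted over them, 103 rows were called higher (0.268%) and 5 lower (0.013%). Of the 20927 rows without a name, 46 were called higher (0.22%) and 4 lower (0.0191%). The largest of these rises, at probe set 13522547, read 3.29, 2.98 and 3.72 with mock and 7.18, 7.87 and 8.35 with DEX, a larger change (4.47) than that of any named gene. Of the 759 rows that name several genes, 0 were called higher or lower by limma in that test. The genes behind the unnamed rows were not looked for.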

How the results depend on the processing

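The count of 129 genes (107 higher, 22 lower) moved by over 1.5 times in most settings, while no named gene that was called in any setting changed sign. More genes were called with all 12 arrays (251, with 183 higher and 68 lower), with a trended and robust variance (276, 188 and 88) and without the dimmest 30% of genes (204, with 50 lower). Fewer were called with all rows tested (58, 57 and 1), at an adjusted p below 0.01 (43, 43 and 0) and at 2-fold or more (75, 68 and 7). Quantile normalization gave 126 (96 higher, 30 lower), centring 125 (98 and 27) and averaged probe sets 129 (107 and 22). Leaving out 1 array, or both arrays of a replicate number, gave 9 to 62 genes in all, 9 to 59 higher and 0 to 3 lower. Without replicate 1 of both groups 9 were called, without replicate 2 19 and without replicate 3 12, with 2 arrays a group. With the replicate number as a block 38 genes were called (36 higher, 2 lower), 35 of them shared with the 129. Deviations of same-numbered mock and DEX arrays from their group means correlated at 0.07, 0.05 and 0.23 across genes. Between mock and DEX arrays of different numbers they correlated at -0.13 to 0.06. Each group was centred on its own mean, so same-number and different-number values are not independent of each other. Whether same-numbered arrays shared a preparation was not tested. The LBD16 difference stood at -0.17 with the block and from -0.13 to -0.19 with 1 array left out. Without a detection call, low values set no limit on small changes. The cause of these shifts was not tested.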
